A study of Eohaustorius estuarius with 16 samples.

Results

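The 8 arrays described here carried RNA of amphipods kept in sediment spiked with cyfluthrin. They were chosen by sample titles that name cyfluthrin, and they are 8 of the 16 arrays of laboratory B in a comparison of 6 laboratories. The animals were Eohaustorius estuarius, a small burrowing crustacean of estuarine sand, and whole bodies were extracted after 10 days at a nominal 1.6 µg/kg. The other 8 arrays carried animals from sediment spiked with solvent alone and are called controls. Genotype and age are not given in the labels. Nothing there tells how many animals went into an extract, or how they were divided over containers, and a p-value therefore covers only the spread between these samples. The question was how exposed samples differed from each other, and which transcripts were higher or lower where the response to cyfluthrin was stronger.

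Cyfluthrin is a pyrethroid. Pyrethroids keep voltage-gated sodium channels of neurons open, which makes the nerves fire repeatedly, and arthropods break these compounds down with esterases and oxidases. Amphipods of this kind are used in tests of sediment toxicity because they burrow in the sediment and feed there. The arrays name transcripts by contig number, a contig being an assembled transcript fragment, and no contig is paired here with a gene, so the contigs are described by their values only and the tissue could not be checked against marker genes. In RNA of whole bodies, fewer cells of a type and less RNA per cell cannot be told apart.

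Levels are log2 of the processed signal minus log2 of the 75th percentile of the array, so 0 is the signal at that percentile and each step of 1 is a 2-fold difference. A contig entered the fits when 4 or more of the 8 cyfluthrin arrays showed 50% or more of its spots well above background, and 7626 of 8507 did. The 75th percentile signal of the exposed arrays ran from 463.2 to 795.7, and 80.6% to 95.4% of their spots were well above background.

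Cyfluthrin replicate 1 stood apart from the other 7. Its share of spots above background, 80.6%, was the lowest of the 8. Its spike-in level was 1.56 log2 units above the 75th percentile, against 0.57 to 1.23 on the others. Its mean correlation with the other exposed arrays was 0.919, against 0.935 to 0.956 for each of the others. It held 30.4% of all squared deviation from the exposed mean, and replicate 8 followed with 16.2%. The results below are therefore given with and without replicate 1.

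The contrast between arrays was clearest in single contigs. A contig was counted for an array when the gap between that array and its nearest neighbour took up more of the range than the 95% critical value of Dixon's test allows. Replicate 1 was far below the other 7 for 338 of 7625 contigs and far above them for 37. Replicate 8 showed the opposite, with 3 contigs far below and 128 far above. On the other 6 exposed arrays the number far below lay between 4 and 58. In all, 9.70% of contigs had such an array among the exposed and 6.57% among the controls, where chance alone gives about 1 in 20. On every exposed array but replicate 1, 307 contigs were above background, while 0 to 49 contigs were missing in the same way from any other exposed array.

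**Figure D1:**
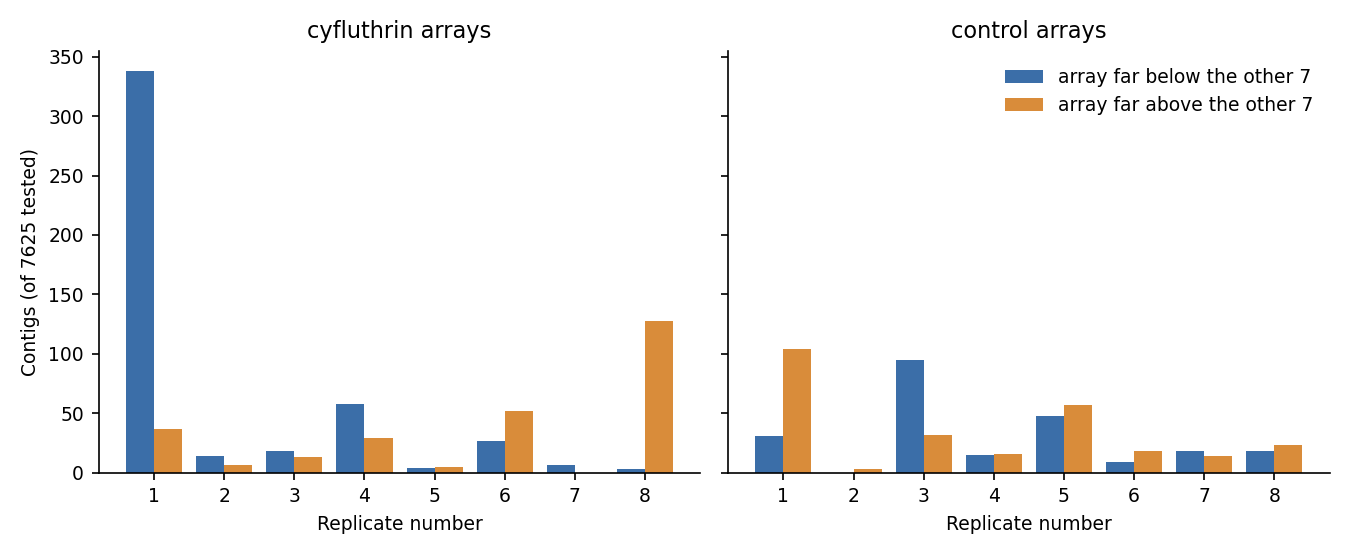
Number of contigs, of 7625 tested, for which an array lay far below (blue) or far above (orange) the other 7 arrays of its group, by replicate number. Cyfluthrin replicate 1 has 338 contigs far below, and cyfluthrin replicate 8 has 128 far above.

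The strength of response was taken from contig_2303, which was higher on every cyfluthrin array than on any control. Its levels on cyfluthrin replicates 1 to 8 were 3.58, 1.94, 2.67, 2.38, 2.75, 2.92, 2.03 and 2.79. The exposed arrays thus ran from replicates 2 and 7 at the bottom, through replicate 4 and a close group of 3, 5, 8 and 6, to replicate 1. The fold between the highest and the lowest was 3.12, and 1.97 without replicate 1. The controls spread further, from -3.08 to 0.22, with an SD of 0.92 against 0.52 in the exposed (n = 8 each). Replicate 1 alone made up 46.7% of the squared deviation of contig_2303 among the exposed, so it weighs heavily in every slope given below.

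Most contigs that responded strongly to cyfluthrin had positive slopes on contig_2303, and 5 of 37 passed the test. Of 7626 contigs, 38 were at least 4-fold higher in cyfluthrin than control (0.498%; limma, adjusted p under 0.05), contig_2303 among them. The filter used the cyfluthrin arrays only. Contigs lacking signal in controls could thus enter, while those lacking it on most cyfluthrin arrays could not. Numbers of contigs higher and lower with cyfluthrin are therefore not directly comparable. The slope of a contig is its change in log2 units for each log2 unit of contig_2303 over the 8 exposed arrays. Among the 37 others the median slope was 0.92, against -0.11 over all contigs, and it ran from -0.07 to 1.29. The slope was positive for 35 of the 37, and for 38.0% of all contigs. For 31 of the 37 it lay between 0.5 and 1.5, a count without a share over all contigs beside it.

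Of these 37 contigs, 5 rose with contig_2303 past the test (13.5%), where 1.26% of all contigs did (limma, adjusted p under 0.05). They were contig_4390, contig_4609, contig_5085, contig_7533 and contig_8441. At an unadjusted p under 0.05 the count was 25 of the 37, beside 3.72% of all contigs. Without replicate 1 none of the 37 passed the adjusted test, 11 had an unadjusted p under 0.05 (2.43% of all contigs), and the median slope was 0.63, against -0.05 over all. The list was made from the means of these same arrays, and its members were chosen with earlier results known, so these counts are a description.

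The contig most like contig_2303 was contig_4609, with a Pearson correlation of 0.991 over the 8 exposed arrays. Its levels on cyfluthrin replicates 1 to 8 were 1.0, -0.63, 0.30, -0.14, 0.29, 0.35, -0.48 and 0.30. As for contig_2303, replicates 2, 7 and 4 were lowest and replicate 1 was highest, and no exposed array overlapped the controls at -4.40 to -2.23. Its slope was 0.99 ± 0.14 (SE; limma, adjusted p = 0.0185), and 1.06 without replicate 1, where the adjusted p was 0.446.

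The mean of the 37 contigs gave the exposed arrays a partly different order. It was 1.32, -0.11, 0.87, 0.66, 0.66, 0.04, -0.29 and 0.60 on replicates 1 to 8. Replicate 1 was again highest and replicates 2 and 7 again lowest, but replicate 6, second highest for contig_2303, was the third lowest here. The mean correlated with contig_2303 at r = 0.78 (exact permutation p = 0.0211, adjusted p = 0.110 over 13 relations) and rho = 0.57 (exact permutation p = 0.151, adjusted p = 0.393). Without replicates 1 and 2 the correlation was 0.46 (n = 6). Leaving out these arrays, the farthest from the median of contig_2303, also narrows its range. The lower value therefore does not show that the relation rested on them. Of the 37 contigs, 25 were highest on replicate 1, as were 9.06% of all contigs. Of the same 37, 14 were lowest on replicate 2 and 15 on replicate 7, counts without a share over all contigs beside them.

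The contigs at least 4-fold lower with cyfluthrin numbered 6 (0.0787% of those tested). Of these 0 passed the slope test in either direction, beside 1.26% and 7.88% of all contigs, and so few contigs show nothing about the list. Of the 6, 5 had a negative slope, and the median was -0.27. The most negative was contig_1777, at -0.85 ± 0.29 (SE; limma, unadjusted p = 0.0165, adjusted p = 0.105). For contig_2561 the exposed arrays lay between -0.17 and 0.68 with a median of 0.12, against 2.18 to 3.29 in controls, and the slope was -0.29 ± 0.21 (SE). For contig_3407 a single array, replicate 4, lay at -5.40, not above background, while the other 7 lay between -1.09 and 0.23 and the controls between 0.67 and 1.93.

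**Figure D2:**
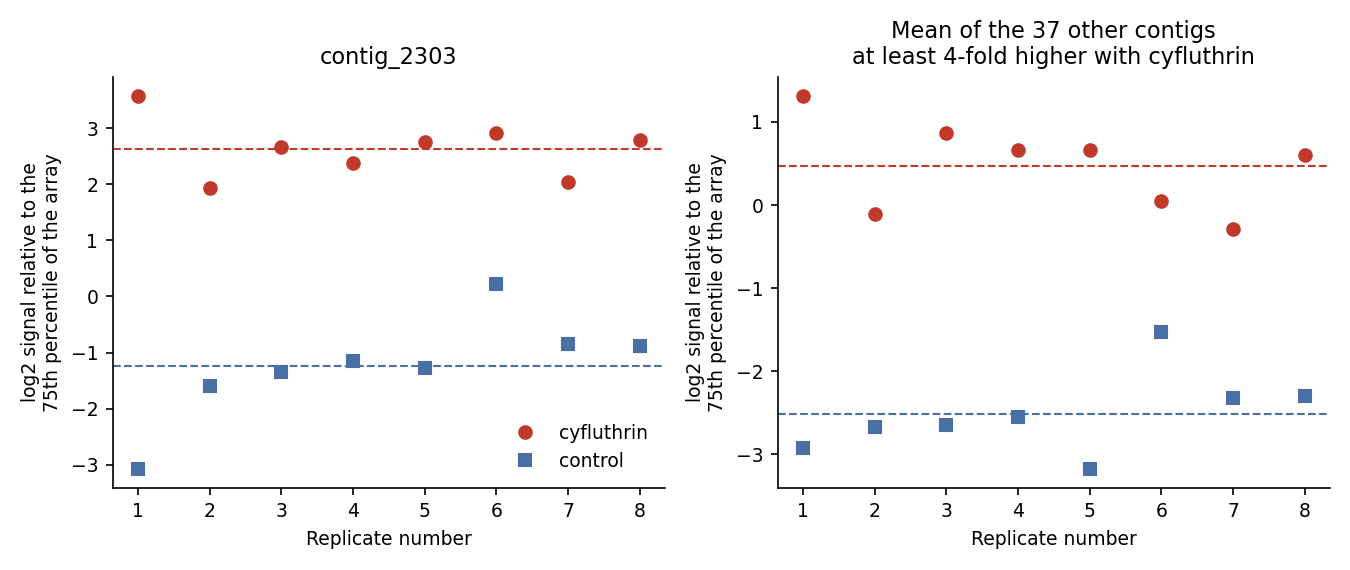
Level of contig_2303 (left) and mean level of the 37 other contigs at least 4-fold higher with cyfluthrin (right), in log2 units relative to the 75th percentile of the array, by replicate number. Points are arrays, red circles cyfluthrin and blue squares control, and dashed lines are group means. The exposed arrays run from 1.94 to 3.58 on the left and from -0.29 to 1.32 on the right.

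The first principal component of the 8 exposed arrays, computed without contig_2303, took 46.8% of the variance and set replicate 1 against the rest. The scores on replicates 1 to 8 were 76.9, -39.7, 17.6, -19.4, 11.4, 7.9, -30.8 and -24.1. Replicate 1 lay far from all others, and replicates 3, 5 and 6 lay above 0 with it. The second component, 19.2%, placed replicate 8 at 48.8 and the others between -26.4 and 12.7. The third, 11.5%, set replicate 6 at -34.3 against replicates 4 and 8 at 24.3 and 19.5. Computed from the first spots and from the second spots of 5552 contigs with 2 spots, the scores of these 3 components correlated at 0.998 or more.

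The first component followed contig_2303, with r = 0.90 (exact permutation p = 0.0031, adjusted p = 0.0403 over 13 relations) and rho = 0.71 (exact permutation p = 0.0576, adjusted p = 0.374). Without replicates 1 and 2, the arrays farthest from the median, r was 0.65 (n = 6). When the components were recomputed without replicate 1, the first correlated with contig_2303 at r = 0.36 (exact permutation p = 0.402). That component was only partly the same axis. The absolute cosine of its loadings with those of the 8-array first component was 0.70, and that of the recomputed second component was 0.46. The lower r therefore does not show whether the relation on the 8-array axis rested on replicate 1. The second component of the 7 arrays correlated at r = 0.82 (exact permutation p = 0.0339, adjusted p = 0.110) and rho = 0.82 (exact permutation p = 0.0341, adjusted p = 0.374), which missed the threshold over the 13 relations. Leaving out replicates 2 and 7, r was 0.96 (n = 5).

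Without replicate 1 the variance was spread more evenly, with 34.0%, 26.5% and 17.1% on the first 3 components. The first set replicates 3 and 5, at 34.2 and 30.3, against replicates 8 and 2, at -41.8 and -25.9. The second set replicates 8 and 6, at 29.8 and 26.2, against replicates 4, 7 and 2, at -32.8, -26.8 and -12.5. The 3 arrays below 0 on it were the 3 lowest in contig_2303. The mean variance of a contig was 0.396 over the 8 exposed arrays, 0.302 without replicate 1 and 0.282 in controls.

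The first component was also set beside 2 measures of array quality, and neither relation passed over the 13. Its correlation with the share of spots above background was -0.74 (exact permutation p = 0.0319, adjusted p = 0.110) with rho = -0.60 (exact permutation p = 0.132), and -0.71 without replicates 2 and 8 (n = 6). Its correlation with the spike-in level was 0.71 (exact permutation p = 0.0492, adjusted p = 0.128) with rho = 0.36 (exact permutation p = 0.389), and -0.54 without replicates 1 and 5 (n = 6). Dim contigs carried much of the axis: of the squared loading, 54.0% lay in the dimmest tercile by mean level and 18.5% in the brightest. On the second component of the 8 arrays the shares were 51.9% and 19.3%, and on the first component without replicate 1 they were 61.3% and 16.6%. Only on the second component without replicate 1 was the loading spread evenly, with 31.0% in the dimmest tercile and 36.0% in the brightest. The part of array quality in these axes was not tested. Against contig_2303 itself, r was -0.15 for the 75th percentile, -0.58 for the share of spots above background, 0.55 for the spike-in level and -0.59 for the mean correlation with the other exposed arrays (exact permutation p = 0.126 to 0.720, adjusted p = 0.236 to 0.780).

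Among the contigs with the strongest loadings were several that were not above background on some arrays. At the positive end of the first component were contig_2245 and contig_274, which also had the greatest SDs among the exposed. The levels of contig_274 on cyfluthrin replicates 1 to 8 were 5.58, -0.05, 3.11, -4.92, 3.84, 3.60, -6.31 and 3.17. Replicates 4 and 7 were far below the rest, as were control replicates 4 and 5 at -7.30 and -5.82. At the negative end were contig_766 and contig_1262. For contig_766 the levels were -7.01, 0.84, -6.14, 0.86, 2.74, 1.65, 1.24 and -0.06. It was not above background on replicates 1 and 3, nor on control replicates 6 and 7, and contig_1262 lacked signal on the same 2 exposed arrays at -7.39 and -7.32.

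The second component of the 8 arrays was led by contig_1442 and contig_206, which were high on replicates 1, 6 and 8. For contig_206 these 3 arrays lay between 1.05 and 2.28 and the other 5 between -6.35 and -4.81. At its other end were contig_4028, highest on replicate 5 at 4.25, and contig_4710, lowest on replicate 1 at -2.27.

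Without replicate 1, contig_2592 and contig_7910 led the first component and contig_3351 and contig_3644 stood at its other end. The levels of contig_3644 were 1.16, -3.00, -2.54, -2.45, -3.32, -2.41, -3.35 and 6.63, so replicate 8 was high, replicate 1 intermediate and the others low. Among controls it ran from -3.61 to 6.41. The second component was led by contig_3092 and contig_274, and contig_7864 and contig_4101 stood at its other end. For contig_4101 replicate 4 lay at 0.21 and the other 7 between -3.83 and -3.31, and the controls between -4.82 and -3.41. Neither contig_3644 nor contig_4101 passed the slope test (limma, adjusted p = 0.435 for the first).

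**Figure D3:**
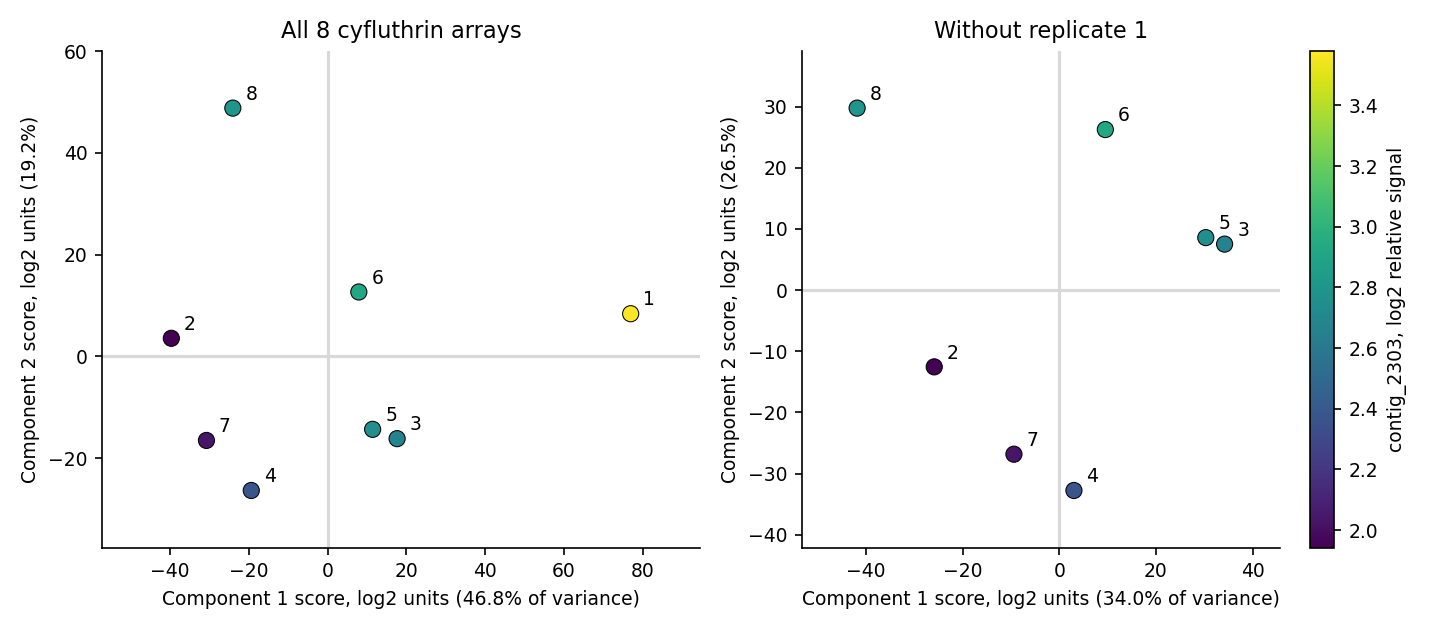
Scores of the cyfluthrin arrays on the first 2 principal components of 7625 contigs, with all 8 arrays (left) and without replicate 1 (right). Numbers are replicates and the colour is the level of contig_2303. On the left replicate 1 lies alone at 76.9 on component 1, and on the right replicates 2, 4 and 7, lowest in contig_2303, lie below 0 on component 2.

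Over the 8 exposed arrays 96 contigs rose with contig_2303 and 601 fell (1.26% and 7.88% of 7625; limma, adjusted p under 0.05). Without replicate 1 the counts were 0 and 0, with 185 and 438 at an unadjusted p under 0.05. They were also 0 and 0 without replicate 2 or without replicate 7, the lowest in contig_2303, with scaling to spike-in probes, with normexp background correction and with the rank of contig_2303 in place of its level, the last chosen after seeing the data. All 697 (9.14% of contigs) kept their direction without each single array, although those fits share 7 arrays with the first. On the probes' first and second spots taken apart, 433 and 537 of 5552 contigs were called and 372 by both in the same direction, which is 85.9% and 69.3% of them. Most calls thus came back on both spots of a probe, but none passed without replicate 1, 2 or 7. Leaving out an array at either end also narrows the range of contig_2303. The counts of 0 therefore do not show that the slopes rested on these arrays.

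Of the 96 contigs that rose, 5 were also called higher with cyfluthrin, a share near that of all contigs (3.78%), and these were the 5 of the 4-fold list. The median change between the groups was -0.50 over the 96 against 0.01 over all. Their slopes ran from 0.61 to 6.21 with a median of 2.75, so most changed by more than contig_2303 did. On simulated data 38.8% of slopes of 1 passed the test and 93.9% of slopes of 4. Choice by the test therefore raises this median. By mean level 15 lay in the dimmest tercile, 41 in the middle and 40 in the brightest, and 82 were above background on all 8 arrays. Replicate 1 was highest for 87 of them and for 9.06% of all contigs, a count that the choice by slope largely fixes.

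Many of the 96 belonged to a group of contigs that was high or low together in single arrays of either group. The levels of contig_130, which marks it, were 6.77, 1.17, 3.90, -2.76, 4.27, 4.70, -3.05 and 4.03 on cyfluthrin replicates 1 to 8. Replicates 4 and 7 were low and replicate 2 intermediate, and control replicates 4 and 5 were as low, at -3.60 and -3.44, with the other controls at 4.91 to 6.96. Over the exposed arrays 44 of the 96 correlated with contig_130 at r above 0.9, 45.8%, against 0.656% of all contigs. contig_130 is itself among the 96 and is counted here. It rose with contig_2303 on these same arrays, so the choice by slope raises the share. For 36 of the 44, contig_130 again counted, r was also above 0.9 among controls, which the choice of the 96 did not use. In all, 39 contigs met both, contig_130 included. Control replicates 4 and 5 were the lowest of their group for 82 of the 96 and for 1039 of all 7625.

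The most positive slopes past the test were those of contig_2245 and contig_88, which correlated with contig_130 at 0.866 and 0.979 over the 8 exposed arrays. For contig_88 the levels were 2.33, -5.04, -1.61, -7.06, -1.13, -1.19, -7.30 and -0.97, with replicates 4 and 7 not above background. Its slope was 5.82 ± 0.93 (SE; limma, adjusted p = 0.0185), and 6.34 without replicate 1 (adjusted p = 0.446). For contig_2245 the levels were 5.12, -3.84, 0.00, -5.72, -0.64, -2.61, -5.66 and 2.41, and the slope was 6.21 ± 1.32 (SE; adjusted p = 0.0265). On cyfluthrin replicate 7 contig_2245 was not above background, so the slopes of both contigs rest in part on signals at background. Both contigs were also not above background on control replicates 4 and 5, between -7.40 and -5.59, which these slopes do not use. With normexp the slopes were 0.88 for contig_88 and 1.76 for contig_2245 (adjusted p = 0.302 and 0.210).

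With contig_130 entered as a covariate, a setting chosen after seeing the data, 0 contigs rose or fell past the adjusted test. The slope of contig_88 was then 2.01 (adjusted p = 0.225) and that of contig_4609 was 0.97 (adjusted p = 0.225). Among exposed arrays contig_130 itself rose with contig_2303, at 5.60 ± 1.33 (SE; adjusted p = 0.0354), a call lost without any of replicates 1, 2, 3, 5, 6 and 7 taken singly. Among the 8 controls its slope was -0.05 (adjusted p = 0.996), and the test of the difference gave an adjusted p of 0.310.

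The contigs closest to contig_2303 after contig_4609 were contig_154 and contig_5417, named after their values were seen. Over the 8 exposed arrays they correlated with contig_130 at 0.877 and 0.918, and over the controls at 0.947 and 0.950. For contig_154 the levels were 4.47, 2.49, 3.06, 2.57, 3.09, 3.61, 2.09 and 3.29, a smooth rise with r = 0.969 and a slope of 1.37 ± 0.18 (SE; adjusted p = 0.0185). Without replicate 1 the slope was 1.26 (adjusted p = 0.446). The level of contig_154 did not differ past the test between the groups: the exposed arrays lay between 2.09 and 4.47 and the controls between 2.44 and 4.06.

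**Figure D4:**
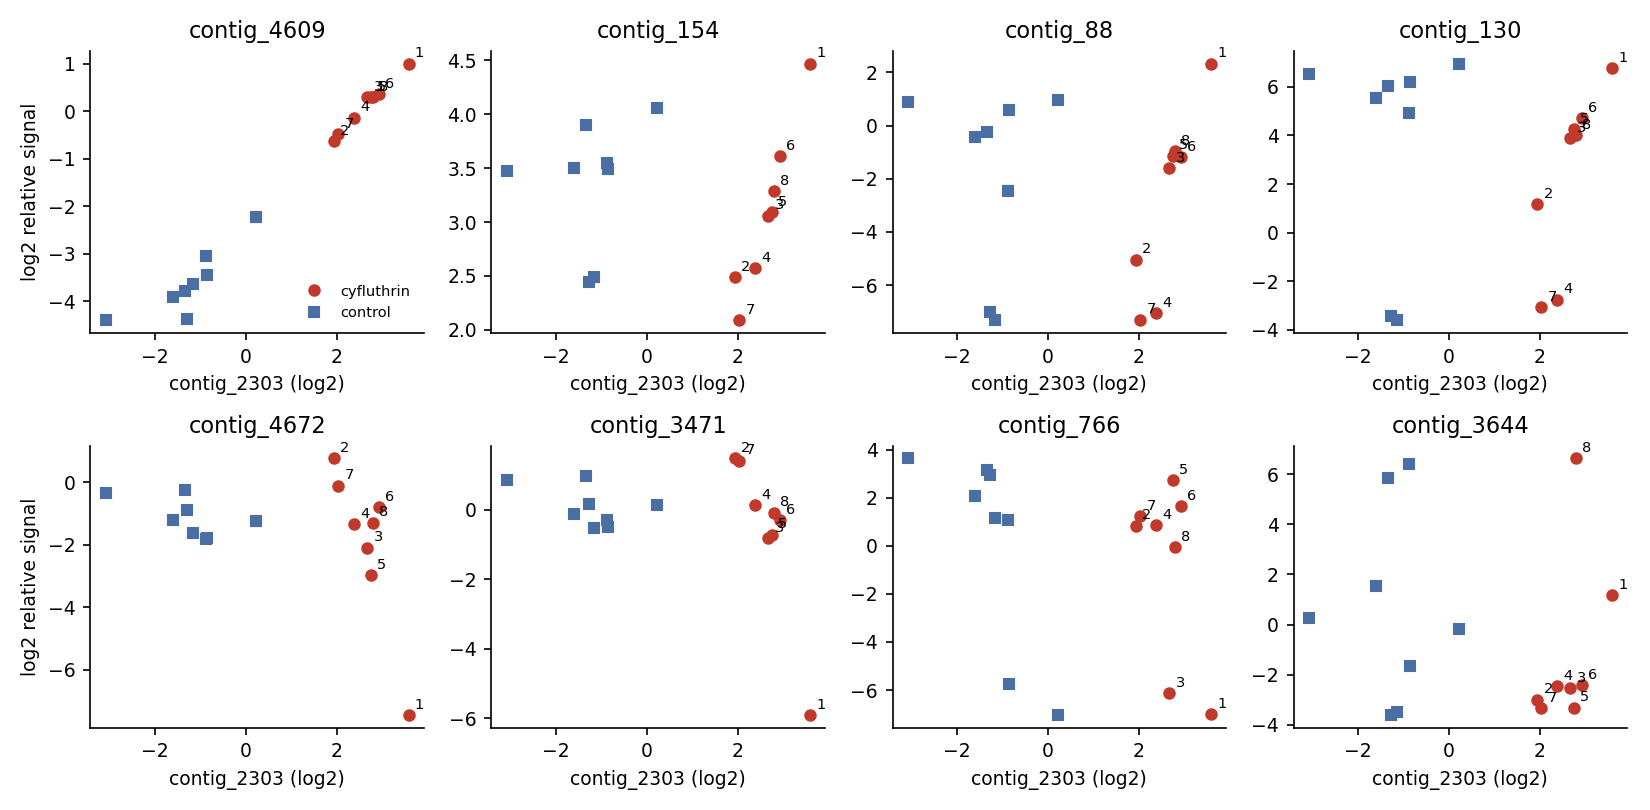
Level of 8 contigs against the level of contig_2303 on the 8 cyfluthrin arrays (red circles, numbered by replicate) and the 8 control arrays (blue squares), in log2 units relative to the 75th percentile of the array. contig_4609 rises with contig_2303 on the cyfluthrin arrays (slope 0.99), contig_88 and contig_130 are low on cyfluthrin replicates 4 and 7, and contig_4672 and contig_3471 are lowest on replicate 1.

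The 601 contigs that fell nearly all had their lowest level on replicate 1. Replicate 1 was the lowest exposed array for 599 of them, or 99.7%, and for 35.7% of all contigs, which the choice by slope likewise largely fixes. It was far below the others, by the gap defined above, for 171. It lacked signal above background for 140, of which 96 were above background on every other exposed array. By mean level 294 lay in the dimmest tercile, 236 in the middle and 71 in the brightest. The slopes ran from -4.17 to -0.61 with a median of -1.29, and the median was -0.91 without replicate 1, where 367 of the 601 had an unadjusted p under 0.05 in the same direction (5.74% of all contigs did). The arrays of that fit were also used to choose the 601, so the choice by slope raises this share too.

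The most negative slopes were those of contig_4672 and contig_3471. The levels of contig_3471 on cyfluthrin replicates 1 to 8 were -5.91, 1.47, -0.82, 0.12, -0.72, -0.30, 1.41 and -0.09. Replicate 1 alone was not above background, and replicates 2 and 7, lowest in contig_2303, were the highest 2. The slope was -4.01 ± 0.63 (SE; limma, adjusted p = 0.0185), and -2.19 without replicate 1 (adjusted p = 0.446). For contig_4672 replicate 1 lay at -7.44, not above background, and the others between -2.97 and 0.76, and the slope was -4.17 ± 0.79 (SE; adjusted p = 0.0222), or -2.27 without replicate 1 (adjusted p = 0.555). With normexp the slopes were -1.46 for contig_4672 and -1.44 for contig_3471 (adjusted p = 0.0877 for both).

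Of the 601 contigs 1 was called higher with cyfluthrin and 1 lower (3.78% and 3.62% of all contigs were), and their median change between the groups was -0.05. With the share of spots above background as a covariate, a setting chosen after seeing the data, 35 contigs rose and 5 fell, and 32 of the 697 were called again in the same direction.

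**Figure D5:**
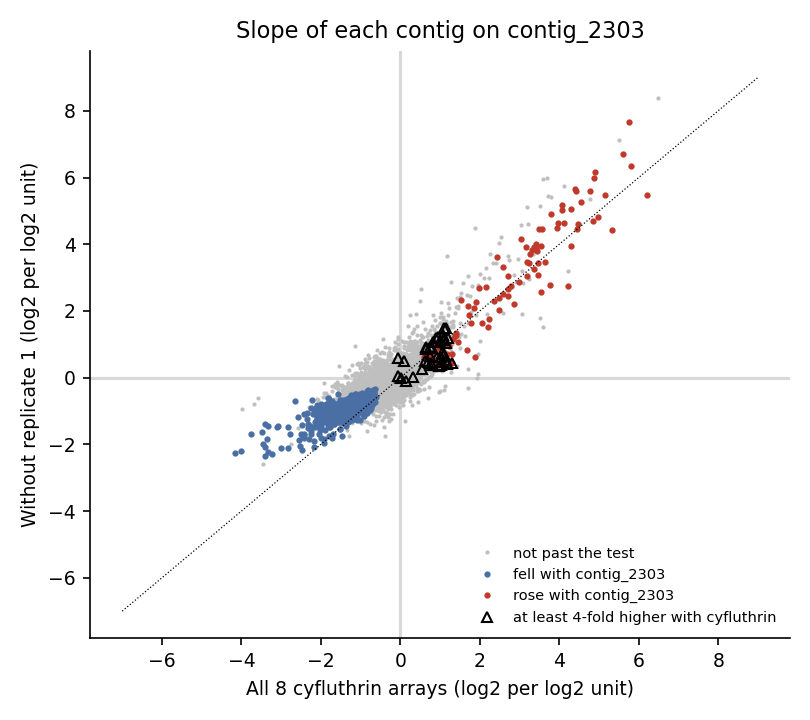
Slope of each of 7625 contigs on contig_2303 over all 8 cyfluthrin arrays (horizontal) and without replicate 1 (vertical), in log2 units per log2 unit. Red contigs rose and blue contigs fell over the 8 arrays (96 and 601), grey did not pass, triangles are the 37 other contigs at least 4-fold higher with cyfluthrin, and the dotted line marks equal slopes. The median slope of the blue contigs is -1.29 over the 8 arrays and -0.91 without replicate 1.

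The same slope was fitted over the 8 control arrays, which the fit above did not use. There 5 contigs rose and 0 fell (0.0656% and 0% of 7625; limma, adjusted p under 0.05), with 110 and 501 at an unadjusted p under 0.05. All 5 were members of the 4-fold list: contig_1993, contig_3691, contig_5141, contig_6271 and contig_7650. Their slopes among controls lay between 1.02 and 1.16 and among exposed arrays between 0.65 and 1.14, where none of the 5 passed the test. The 5 calls were lost without control replicate 1 or control replicate 6, the lowest and the highest control for contig_2303. Over the 37 contigs the median slope among controls was 0.36, against -0.05 over all contigs, with 32 of the 37 positive (35.2% of all) and 17 at an unadjusted p under 0.05 and positive (1.44% of all).

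The contigs called among exposed arrays were then followed in the controls. Of the 96 that rose, 66 had a positive control slope, 68.8% against 35.2% of all contigs, but 1 had an unadjusted p under 0.05 (1.04%, beside 1.44% of all). Of the 601 that fell, 481 had a negative control slope, 80.0% against 64.8% of all, and 12 had an unadjusted p under 0.05 (2.0%, beside 6.57% of all). The median control slope was 0.08 over the 96 and -0.10 over the 601.

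The test of the difference between the slopes called 3 contigs with a higher slope under cyfluthrin and 209 with a lower one (0.0393% and 2.74% of 7625; limma, adjusted p under 0.05). The lower group was led by contig_4672, with slopes of -4.17 and -0.38 in exposed and control arrays (difference -3.79 ± 0.77 SE, adjusted p = 0.0286), and contig_3471, with -4.01 and -0.30 (difference -3.71 ± 0.63 SE, adjusted p = 0.0258). Among the 3 were contig_119, at 3.45 and 0.09 (adjusted p = 0.0446), and contig_7623, at 1.08 and -0.50 (adjusted p = 0.0297). The signal of contig_7623 was not above background on 3 of the 8 exposed and 3 of the 8 control arrays, so its slopes rest in part on signals at background. The levels of contig_119 ran from -1.54 on replicate 4 to 4.34 on replicate 1, with a median of 1.87, and from 1.75 to 4.89 in controls. No contig of the 37 differed in slope past this test. Without cyfluthrin replicate 1, 0 contigs had a higher and 0 a lower slope, and the same held without control replicate 1 or control replicate 6, with normexp and with the replicate block.

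The exposed arrays lay on 2 slides, replicates 1 to 4 on the first and 5 to 8 on the second, each in a single row. No contig differed between the slides (0% of 7626; limma, adjusted p under 0.05), with 38 higher and 35 lower on the second at an unadjusted p under 0.05. The lowest unadjusted p values were those of contig_5775 and contig_2425, higher on the second slide by 0.95 and 1.08, and contig_5486 and contig_2658, lower by 1.22 and 1.01, and all 4 missed the adjusted test at 0.999. With slide as a block, 99 contigs rose and 623 fell with contig_2303.

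The distance between exposed arrays did not differ past the test from that between controls, except with normexp background correction. The root mean square deviation of an array from the mean of the other arrays of its group was 0.651 ± 0.182 log2 units in cyfluthrin and 0.556 ± 0.126 in control (SD, n = 8 each; exact permutation p = 0.261, 2-sided). With normexp the difference was 0.384 in place of 0.0950 log2 units (exact permutation p = 0.000466). Replicate 1 had the greatest deviation, 1.05, and the other exposed arrays lay between 0.481 and 0.767, within the range of 0.350 to 0.722 of the controls except for replicate 8. Without replicate 1 the exposed mean was 0.589 ± 0.0806 (SD, n = 7; exact permutation p = 0.566). The deviations within a group share their means, so these p-values are approximate. Along the first 3 components of the controls lay 6.77%, 12.1% and 2.39% of the variance of the 8 exposed arrays.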

How the data were processed

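Total RNA of whole bodies was labelled with Cy3 and hybridised to 1-colour Agilent arrays, 8 control and 8 cyfluthrin. The deposited processed signal is an intensity, background-subtracted by Agilent Feature Extraction, for which the file headers name version 10.7.1.1 and the submitters' processing notes version 9.1. A further table of log2 values was deposited by the authors; each of its columns correlated at 0.996 or more with quantile-normalized log2 signals centred on each probe's median, the steps behind it are not given in those sources, and it served as an alternative.

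From the intensities, log2 signals were scaled to each array's 75th percentile, spots marked as outliers were set aside, saturated spots were kept and a contig's spots averaged. Slopes on contig_2303, their difference between groups, and the group and slide differences were tested 2-sided with limma 3.58.1 (R 4.3.3; lmFit, then eBayes) at a Benjamini-Hochberg threshold of 0.05. Principal components used contig-centred values. Exact permutation used numpy 2.4.6 and all pairings or all choices of arrays; 13 relations were computed, 3 of them added after seeing the data. Named contigs were contig_2303, the 2 most positive and 2 most negative of each test (the lowest unadjusted p where fewer passed), the 2 highest and 2 lowest loadings of each axis, the 2 greatest SDs, and contigs known from earlier results. The members, contigs and lists were chosen with earlier results of these data known. The gene lists need names and could not be applied.

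The slope fit was tested on simulated data with known slopes. It recovered 38.8%, 85.1% and 93.9% of slopes of 1, 2 and 4, with 9 false calls. The simulated noise was independent between contigs, while the real contigs vary together along shared axes. The false calls therefore do not show how many of the real calls are false. The number of arrays limits the precision. Alternatives were other scalings, background corrections, filters, measures of response, a slide block, a replicate block and each array left out.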

Additional observations from a re-analysis of the deposited data

Results flagged for a closer look

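Of 74 groups of 8 values examined, 9 held an array far from its neighbours by Dixon's test. The groups included contigs named for extreme slopes, loadings or SDs in these same arrays. For such a choice the chance rate of about 1 in 20 does not hold, so the count shows no excess. Among the exposed arrays, replicate 1 was low for contig_4672 (-7.44, others -2.97 to 0.76) and contig_3471 (-5.91, others -0.82 to 1.47). Replicate 4 was low for contig_3407 (-5.40, others -1.09 to 0.23) and high for contig_4101 (0.21, others -3.83 to -3.31). Replicate 8 was high for contig_3644 (6.63, others -3.35 to 1.16).

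Among the controls, replicate 4 was high for contig_5486 (0.88, others -0.61 to 0.07) and low for contig_2592 (-4.04, others 1.41 to 4.60). Control replicate 1 was low for contig_1442 (-5.34, others -0.22 to 3.95). The spike-in level of control replicate 3 was -0.10, with the other controls at 0.65 to 0.88.

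The slope on contig_2303 differed between exposed and control arrays, by the interaction test, for 4 of the named contigs. These 4 were named by this test, so their number was set by the naming. Of all 7625 contigs, 3 had a higher slope under cyfluthrin and 209 a lower one (limma, adjusted p under 0.05). The difference, cyfluthrin minus control, was -3.79 for contig_4672, -3.71 for contig_3471, 3.37 for contig_119 and 1.58 for contig_7623. All slope differences past the test were lost without cyfluthrin replicate 1, without control replicate 1 or 6, with normexp and with the replicate block. The cause was not tested.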

How the results depend on the processing

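The counts of contigs that rise and fall with contig_2303 among exposed arrays were 96 and 601. They were 198 and 894 when scaled to the median, and 113 and 312 with quantile normalization, 113 and 286 in the authors' value table, and 154 and 980 at an adjusted p under 0.1. Scaling to spike-in probes, normexp, the mean of the 4-fold rises and, added after seeing the data, the rank of contig_2303 and contig_130 as a covariate each gave 0 and 0. The share of spots above background as a covariate gave 35 and 5. Without single exposed arrays there were 0 to 166 rises and 0 to 1327 falls. All 697 called contigs kept their direction in each of these settings in which they were tested, except 15 under normexp and 1 with contig_130 as a covariate. With contig_2303 as the measure, contig_4609 passed in 15 of 22 alternatives and missed in 7.

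Among controls, the counts of 5 rises and 0 falls became 8 and 1 with quantile normalization, and 0 to 6 and 0 to 3 without each control. The slope differences, 3 higher and 209 lower, became 40 and 318 with quantile normalization, 0 and 0 with normexp, 2 and 130 with no filter on dim contigs, 0 and 0 with the replicate block, and 0 to 30 and 0 to 556 without each array. The group difference, 288 higher and 276 lower, became 87 and 103 with normexp, 176 and 190 with the replicate block, and 217 to 397 and 199 to 389 without each array. The block rests on shared numbers only: deviations of same-numbered arrays correlated from -0.27 to 0.45, over 0.1 in 4 of 8 pairs, and 2 of 8 exposed arrays correlated best with their own number.

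The first component's share, 46.8%, was 40.2% with quantile normalization and in the authors' table, 80.4% with normexp, 35.0% with each contig at unit SD, and 34.0% to 55.0% without each array. Without replicate 1 its share of 34.0% was 84.6% with normexp, 41.8% with no filter, and 33.3% to 41.0% without a further array. Its correlation with contig_2303 ran from 0.36 to 0.97 without each array and, by exact p-values not adjusted over the 13 relations, missed 0.05 only without replicate 1. The excess distance of exposed arrays, 0.0950 log2 units, was 0.384 with normexp (exact permutation p = 0.000466) and 0.0328 to 0.130 without each array. The cause of these changes was not tested. Signals near background limit the levels of dim contigs, and 8 arrays, with a single one at the top of the response, limit the slopes.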

Other observations

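Some contigs varied widely among the exposed arrays. The range over the 8 arrays was at least 16-fold for 276 contigs, 149 without replicate 1 and 153 among controls, and at least 64-fold for 83, 50 and 79. The median range of a contig was 1.12 log2 units over the 8 exposed arrays, 0.98 without replicate 1 and 0.85 in controls. Of the 276 contigs, 125 also varied at least 16-fold among controls.

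These contigs marked different arrays. Replicate 1 was the lowest array for 120 of the 276 and the highest for 67. Replicate 8 was the highest for 84 and the lowest for 1, and replicate 2 the highest for 58 and the lowest for 3. Replicates 4 and 7 were the lowest for 54 and 52 and the highest for 5 and 18.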
